A study of Arabidopsis thaliana with 27 samples.

Results

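FUG1 (AT1G17220, a chloroplast translation initiation factor), PSAE-1 (AT4G28750, a subunit of photosystem I) and AT1G64500 (a glutaredoxin-family protein) are 3 of the 416 Arabidopsis thaliana genes named on a small spotted cDNA array of stress-related genes. They were chosen by their annotation, with earlier results of these data known, and each has 2 of the array's 2560 spots. The labels call the material leaves in one place and the plant without its root in another, from 28-day-old soil-grown Columbia plants under 12 h of light a day. It was compared on 27 arrays after a spray with 1 of 6 agents that act on plant defence. The plants received 5 mM SA (the hormone salicylic acid), 1 mM INA or 0.5 mM BTH (both synthetic compounds that act in place of SA), 10 mM BABA (beta-aminobutyric acid), 1 mM ET (ethephon, a source of ethylene) or 0.1 mM MeJA (methyl jasmonate). Harvests followed 2, 5, 10 and 24 h later, and every array set treated RNA (Cy5) against RNA of untreated plants (Cy3). Sprayed plants were kept at high humidity, no mock spray is described, and the dyes were never swapped. The clock time of harvest is not given in the sources used here.

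Most proteins of the chloroplast are encoded in the nucleus, and a smaller set is made on the plastid's own ribosomes. FUG1 corresponds to bacterial initiation factor IF2, which brings the initiator transfer RNA to the ribosome, so it acts at the first step of plastid protein synthesis. PSAE-1 encodes subunit E of photosystem I, a small nuclear-encoded protein on the stromal side of the complex, where ferredoxin takes up electrons. Glutaredoxins are thiol oxidoreductases that draw electrons from glutathione. The 3 genes thus touch plastid protein synthesis, photosynthetic electron transport and thiol redox chemistry.

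Values below are log2 ratios, treated over untreated, with the median spot of each array set to 0, averaged over a gene's 2 spots. No source gives the base of the deposited logarithm. It was read as 2, and the folds depend on that choice. "Higher" and "lower" are relative to the median spot. Material of replicate experiments was pooled ahead of the RNA extraction, and repeat arrays (2 each for BTH at 5 h and for INA at both 10 and 24 h) used the same RNA, so each of the 24 conditions is 1 sample. A mean over the 4 times of an agent is given with the standard error (SE) of one limma fit over 180 genes with enough values. Its Benjamini-Hochberg adjusted p was read against a threshold of 0.05. All 3 genes had a value in all 24 conditions and entered the fit. The SE and p-values of the fit rest on the spread between conditions left after its terms for agent and time. That spread may be partly technical. The conditions share the untreated reference, so an error in it can enter every mean against untreated plants without adding to that spread. Whether each harvest time had its own untreated RNA is not stated here. In whole tissue, a change in the share of a cell type and a change of RNA per cell cannot be told apart.

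The arrays held 1204 to 2358 spots with a value, and the array medians ran from -0.76 to 1.49 before centring. Called genes with a lower mean numbered 39 to 64 by agent, and those with a higher mean 40 to 67. In the deposited values these ranges were 11 to 36 and 44 to 97, after centring on the alpha-tubulin gene TUA5 8 to 43 and 72 to 144, and after quantile normalization 20 to 35 and 85 to 102. Centring on TUA5 moved the median of the 180 genes from 0.06 to 1.22 under SA, 0.02 to 0.92 under INA, 0.04 to 1.40 under BTH, 0.01 to 0.27 under BABA, 0.11 to 0.48 under ET and -0.04 to 0.88 under MeJA. Of the leaf markers listed for a check of the tissue, PSAE-1 alone was among the named spots. A ratio gives no level, so the tissue could not be checked.

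**Figure D1:**
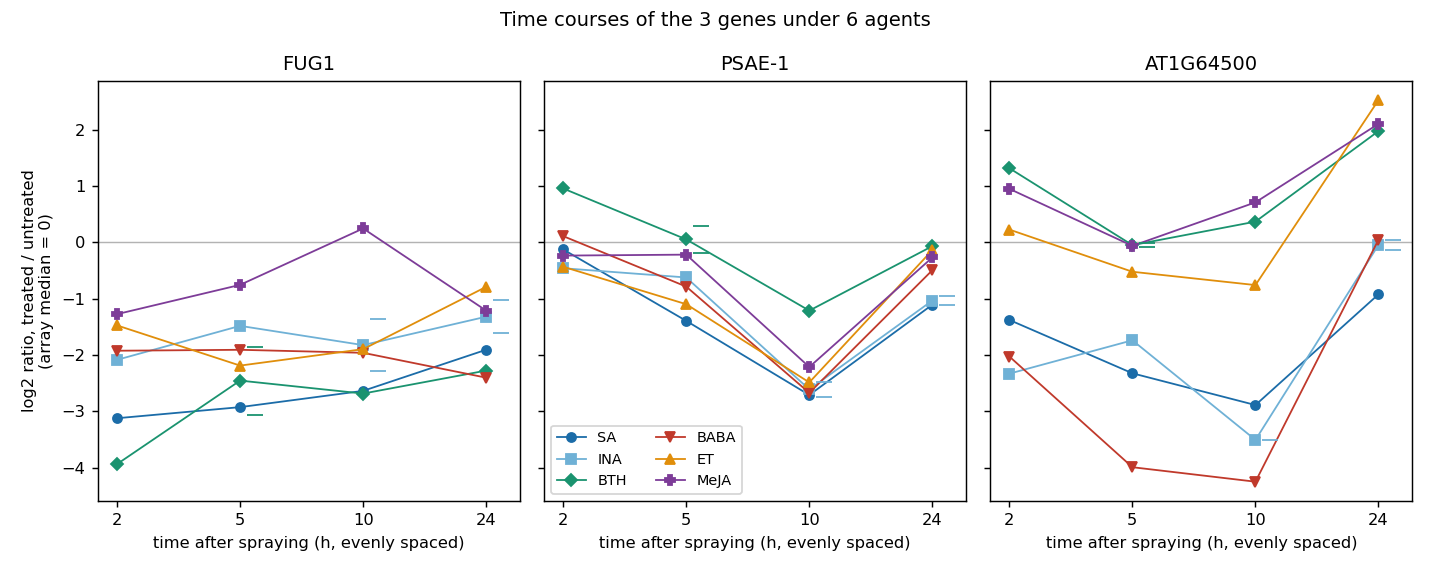
Log2 ratio of treated over untreated plants (vertical axis, array median at 0) at 2, 5, 10 and 24 h after spraying (evenly spaced) for each gene, with 1 line per agent; short dashes beside INA 10 h, INA 24 h and BTH 5 h are the single repeat arrays. FUG1 lies below 0 in 23 of 24 conditions, PSAE-1 is lowest at 10 h under all 6 agents, and AT1G64500 is highest at 24 h under all 6 agents.

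FUG1 was lower than in untreated plants under all 6 agents, under MeJA only with some choices of zero, and it did not pass the test among times. The dyes were never swapped and no mock spray is described. A part of dye, spraying or the shared untreated reference in this and other means against untreated plants could not be tested. Under BTH the ratio of FUG1 was -3.94 (2 h), -2.45 (5 h), -2.68 (10 h) and -2.28 (24 h). Under SA the values were -3.12, -2.93, -2.64 and -1.91 in the same order of times. These agents had the lowest means of the gene over the 4 times, although BABA was lower than both at 24 h. At 2 h only 1 of 179 measured genes lay below it under BTH and none of 178 under SA.

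BABA gave the flattest course of FUG1, with -1.92 (2 h), -1.91 (5 h), -1.96 (10 h) and -2.40 (24 h). INA gave -2.09, -1.48, -1.82 and -1.32 at the same times. ET gave -1.47, -2.19, -1.90 and -0.79. All 12 values of these 3 agents were below 0, and they overlapped between the agents.

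MeJA gave the highest values of FUG1 at 2, 5 and 10 h, and ET the highest at 24 h. The MeJA values were -1.27 (2 h), -0.75 (5 h), 0.25 (10 h) and -1.21 (24 h). The value at 10 h was the only one of the gene above 0, and at that time 116 of the 177 measured genes lay below it. At the other 3 times under MeJA the gene ranked between 19 and 23 from the lowest.

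The mean of FUG1 over the 4 times was -2.84 ± 0.25 under BTH (7.15-fold lower, adjusted p = 2.7e-09, limma). It was -2.65 ± 0.25 under SA (6.27-fold lower, adjusted p = 6.5e-09) and -2.05 ± 0.25 under BABA (4.14-fold lower, adjusted p = 1.3e-07). INA gave -1.68 ± 0.25 (adjusted p = 4.2e-06) and ET -1.59 ± 0.25 (adjusted p = 9.2e-06). MeJA gave -0.75 ± 0.25 (1.68-fold lower, adjusted p = 0.0145). FUG1 therefore passed the threshold as lower under 6 of 6 agents. The share of all tested genes called lower was 28.3% under BTH, 35.6% under SA, 32.8% under BABA, 27.2% under INA, 21.7% under ET and 23.9% under MeJA. Its mean ranked 3rd from the lowest of 180 genes under BTH, 2nd under SA, 11th under BABA, 10th under INA, 10th under ET and 28th under MeJA.

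The calls under SA, INA, BTH, BABA and ET held under all 16 alternative settings, and the call under MeJA did not. The MeJA mean was 0.17 after centring on TUA5, -0.45 in the deposited values, -0.57 without the 2 h conditions and -0.59 without those of 24 h, none past the threshold. FUG1 also differed between arrays of the same RNA by more than the median gene. The first and second arrays gave -3.06 and -1.85 for BTH at 5 h. For INA they gave -2.28 and -1.37 at 10 h, then -1.61 and -1.03 at 24 h. The first array was lower in all 3 pairs, by 1.21, 0.92 and 0.58, against medians over the tested genes of 0.41, 0.33 and 0.40 for the size of that difference. With the replicate number as a block, fitted over all 27 arrays, the means of FUG1 were -2.53 under BTH, -2.28 under SA, -1.68 under BABA, -1.58 under INA and -1.21 under ET, all past the threshold. The blocked mean under MeJA was -0.38 and did not pass (adjusted p = 0.352). That fit counts repeat arrays of the same RNA as separate samples, so its p-values do not rest on 24 samples. SA, BABA, ET and MeJA have no second arrays, so their blocked means carry an offset estimated from the INA and BTH pairs alone. The part of the array series in the level of FUG1 was not tested further.

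PSAE-1 varied between the harvest times. With no clock time and no mock spray given, time after treatment, time of day and the spraying itself cannot be told apart for any of the 3 genes. Untreated RNA used for all agents at a time would also carry its error into every agent at that time. The agents would then not be independent cases of a difference between times, and the SE and p-values would not show it. That was not tested. At 10 h the ratio of PSAE-1 was -2.71 under SA, -2.67 under BABA, -2.61 under INA, -2.49 under ET, -2.21 under MeJA and -1.21 under BTH. At 2 h, in the same order of agents, it was -0.13, 0.11, -0.46, -0.43, -0.24 and 0.96. The value at 10 h was the lowest of the 4 times under all 6 agents, and the 2 sets of values do not overlap. How many other genes show no overlap between 2 h and 10 h was not counted.

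At 5 h PSAE-1 stood at -1.39 under SA, -0.79 under BABA, -0.62 under INA, -1.10 under ET, -0.22 under MeJA and 0.05 under BTH. At 24 h the values were -1.11, -0.49, -1.03, -0.14, -0.27 and -0.07 in that order. The values at 24 h lay within the range of those at 5 h, and SA at 5 h was lower than BTH at 10 h, so single values at different times overlap between agents.

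Averaged over the 6 agents, PSAE-1 was -0.03 ± 0.14 (2 h), -0.68 ± 0.14 (5 h), -2.32 ± 0.14 (10 h, 4.98-fold lower) and -0.52 ± 0.14 (24 h). After centring on TUA5 the mean at 24 h was 0.73 and passed as higher (adjusted p = 0.00058), and after quantile normalization it was -0.05. The mean at 10 h passed as lower with each choice of zero. With median centring, the 10 h mean ranked 1st of the 180 genes by p and the 24 h mean 76th. The share of genes that passed at a single time was not counted. The difference among the 4 times had the highest F of the 180 genes (F = 48.3, adjusted p = 7.2e-08, limma). Of all tested genes, 57.8% passed this test. Comparisons between single times were added after the values were seen, and 29.7% of them passed over all genes and 6 pairs of times. PSAE-1 was lower at 10 h than at 2 h by 2.29 ± 0.20 (adjusted p = 7e-08), lower at 10 h than at 5 h by 1.64 ± 0.20 (adjusted p = 2.3e-06), and higher at 24 h than at 10 h by 1.80 ± 0.20 (adjusted p = 8.2e-07). It also fell from 2 to 5 h, by 0.65 ± 0.20 (adjusted p = 0.0169). That difference was -0.21 with TUA5 at 0 and -0.44 in the deposited values, neither past the threshold, while 24 h and 5 h differed by 0.16 ± 0.20, with a 95% half-width of 0.42.

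The pattern with 10 h lowest under all 6 agents was shown by 5 of the 137 genes measured in every condition, or 3.65%. It also held for PSAE-1 in the deposited values, after centring on TUA5 and after quantile normalization. The differences of 10 h from 2, 5 and 24 h passed under each setting that keeps both times. Without the 10 h conditions the test among times gave F = 4.57, short of the threshold (adjusted p = 0.051). The repeat arrays of PSAE-1 were close, with 0.29 and -0.18 for BTH at 5 h, and for INA -2.75 and -2.47 at 10 h, then -1.11 and -0.96 at 24 h.

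Against untreated plants, the mean of PSAE-1 over the 4 times was -1.33 ± 0.17 under SA (2.52-fold lower, adjusted p = 6.7e-07) and -1.18 ± 0.17 under INA (adjusted p = 4.6e-06). It was -1.04 ± 0.17 under ET, -0.96 ± 0.17 under BABA and -0.73 ± 0.17 under MeJA, with adjusted p up to 0.0013. These 5 means passed as lower, against the shares of lower genes given above. BTH gave -0.07 ± 0.17 and did not pass, with values of both signs. None of the 5 calls held under every alternative setting. In the deposited values the means were -0.54 under SA, -0.57 under INA, -0.40 under ET, -0.59 under BABA and -0.44 under MeJA, none past the threshold. Without the 10 h conditions the means were -0.56 under ET, -0.39 under BABA and -0.24 under MeJA, no longer past it, while SA (-0.88) and INA (-0.71) still passed.

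**Figure D2:**
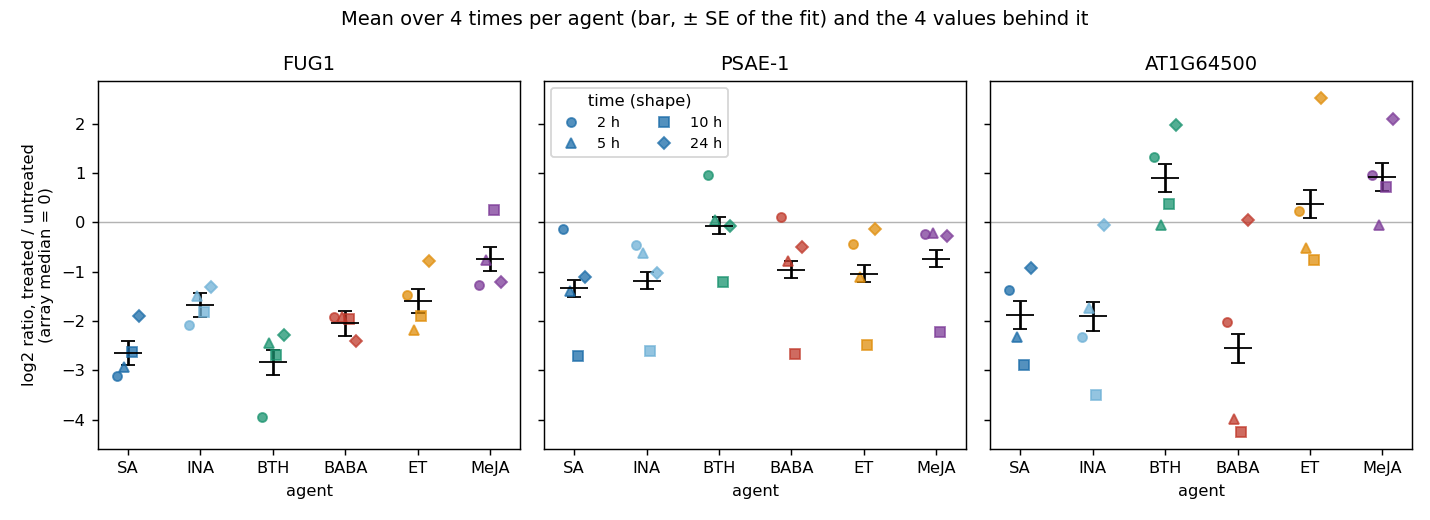
Log2 ratio of treated over untreated plants (vertical axis) by agent (horizontal axis), with the 4 conditions of each agent as points, shaped by time, and the mean ± SE of the fit as a bar. FUG1 means run from -2.84 (BTH) to -0.75 (MeJA), PSAE-1 means from -1.33 (SA) to -0.07 (BTH), and AT1G64500 means fall into 3 between -2.56 and -1.88 and 3 between 0.37 and 0.93.

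AT1G64500 differed both between agents and between times. Under BABA its ratio was -2.03 (2 h), -3.99 (5 h), -4.25 (10 h) and 0.05 (24 h). Under INA it was -2.33, -1.74, -3.51 and -0.05 at these times, and under SA -1.38, -2.32, -2.89 and -0.92. With these agents the gene was low from 2 to 10 h, and at 24 h it lay between -0.92 and 0.05.

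Under BTH the gene stood at 1.32 (2 h), -0.05 (5 h), 0.37 (10 h) and 1.98 (24 h). Under MeJA it was 0.95, -0.06, 0.71 and 2.1 at these times. Under ET it was 0.23, -0.52, -0.76 and 2.53. At each of the 4 times, all values of BTH, MeJA and ET lay above all values of SA, INA and BABA. This grouping of agents was read off the same values, and how many other genes split the agents in such a way was not counted. The ratio at INA 10 h rests on 1 array, since the second array of that condition had no value for either spot. The title and treatment text of the first INA 10 h array give 10 h and its source name 2 h. That array also enters the INA 10 h values of FUG1 and PSAE-1. With the first arrays of the 3 repeated conditions left out, AT1G64500 had 23 conditions and its mean under INA was -1.65, still past the threshold.

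The mean over the 4 times was -2.56 ± 0.29 under BABA (5.88-fold lower, adjusted p = 4.3e-08), -1.91 ± 0.29 under INA (3.75-fold lower, adjusted p = 5.4e-06) and -1.88 ± 0.29 under SA (3.68-fold lower, adjusted p = 4.5e-06). It was 0.93 ± 0.29 under MeJA (1.90-fold higher, adjusted p = 0.0099) and 0.90 ± 0.29 under BTH (1.87-fold higher, adjusted p = 0.0093), where 22.2% and 31.7% of tested genes were called higher. The mean of 0.37 ± 0.29 under ET did not pass. The calls under BABA and INA held under all 16 settings, and the call under SA was lost after centring on TUA5 (-0.71, adjusted p = 0.078). The higher calls under BTH and MeJA were lost without the 24 h conditions (0.55 and 0.53) and without time terms in the fit (adjusted p = 0.237 and 0.258), and that under BTH also without 2 h (0.76).

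Over the 6 agents AT1G64500 averaged -0.54 ± 0.23 (2 h), -1.45 ± 0.23 (5 h), -1.72 ± 0.23 (10 h) and 0.95 ± 0.23 (24 h). The 2 h mean passed as lower (adjusted p = 0.0442) but not with the replicate block (-0.49, adjusted p = 0.207) or with another choice of zero. By p it ranked 123rd of the 180 genes, and the genes ahead of it passed too, in either direction. The difference among times had F = 26.4 (adjusted p = 2.3e-06), the 9th highest of 180 genes. In comparisons added after the values were seen, 24 h was higher than 10 h by 2.67 ± 0.33 (6.36-fold, adjusted p = 2.4e-06), than 5 h by 2.40 ± 0.33 (adjusted p = 9.4e-06) and than 2 h by 1.49 ± 0.33 (adjusted p = 0.0014). The gene was highest at 24 h under 6 of 6 agents, a pattern shown by 5 of 137 complete genes, and this held in the deposited values, after centring on TUA5 and after quantile normalization.

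FUG1 did not pass the test among times (F = 1.94, adjusted p = 0.202). Its average over agents was -2.30 ± 0.20 (2 h), -1.95 ± 0.20 (5 h), -1.79 ± 0.20 (10 h) and -1.65 ± 0.20 (24 h). It did pass after centring on TUA5 (F = 7.82, adjusted p = 0.0032) and after quantile normalization (F = 5.90, adjusted p = 0.0088). The mean of 10 and 24 h minus the mean of 2 and 5 h was -1.06 ± 0.36 for PSAE-1 (adjusted p = 0.0405), where 25% of all genes passed. That call was lost without the 2 h conditions (-0.74), without 5 h (-1.39) and without 10 h (-0.16). It was also lost in the deposited values (-1.01), after centring on TUA5 (-0.66) and after quantile normalization (-0.87). It was 0.41 ± 0.23 for FUG1 and 0.61 ± 0.54 for AT1G64500, and neither passed. FUG1 passed after quantile normalization (0.90, adjusted p = 0.0104). AT1G64500 passed without the 10 h conditions (1.94, adjusted p = 0.0019) and turned to -0.73 without those of 24 h. Within single agents none of the 18 such differences passed, and the lowest unadjusted p was 0.163 (limma), so 0 had an unadjusted p under 0.05. Over all genes 1.11% passed under SA, 0.556% under BABA, 0.556% under MeJA and 0% under INA, BTH and ET. Of the 180 genes, 0 passed the test of whether late minus early differed between agents (limma), 7 had an unadjusted p under 0.05, and F for the 3 genes was 0.11 (AT1G64500), 0.48 (FUG1) and 0.09 (PSAE-1). These averages join 10 h with 24 h, times at which PSAE-1 and AT1G64500 stood far apart.

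**Figure D3:**
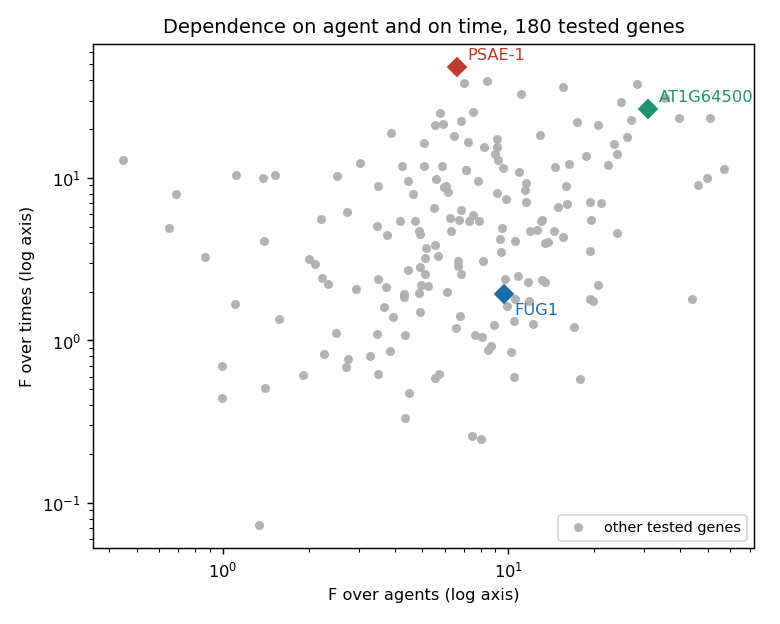
F over the 6 agents (horizontal, log axis) and F over the 4 times (vertical, log axis) for each of the 180 tested genes, with the 3 genes marked. PSAE-1 has the highest F over times (48.3), AT1G64500 is high on both axes (30.8 and 26.4), and FUG1 is at 9.65 and 1.94.

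All 3 genes differed among the 6 agents, as did 86.1% of the 180 genes. F was 30.8 for AT1G64500 (adjusted p = 3.8e-08, 8th of 180), 9.65 for FUG1 (adjusted p = 0.00013, 60th) and 6.60 for PSAE-1 (adjusted p = 0.0011, 99th). PSAE-1 no longer passed in the deposited values (F = 0.87) or without time terms (F = 0.89). All 15 pairs of agents were then compared, with p adjusted over all genes and pairs, of which 38.1% passed. Doses differ between agents, so these are differences between treatments and not between equal amounts.

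AT1G64500 passed in 9 of 15 pairs, namely each pair with 1 agent from SA, INA and BABA and 1 from BTH, ET and MeJA. The largest was MeJA minus BABA, at 2.98, 3.93, 4.96 and 2.06 over the 4 times, with a mean of 3.48 ± 0.41 (11.2-fold, adjusted p = 7.9e-07). BTH, used as an analog of SA, was above SA by 2.69, 2.28, 3.26 and 2.90 over the times and above INA by 3.65, 1.69, 3.88 and 2.02. INA and SA differed by -0.03 ± 0.41 with a 95% half-width of 0.84, and the sign changed between times. Of the 9 calls, 7 held under every alternative, and ET against SA and ET against INA were lost without time terms in the fit (adjusted p = 0.065 and 0.062).

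FUG1 passed in 8 of 15 pairs. MeJA was above BTH by 2.09 ± 0.35 (adjusted p = 6.8e-05) and above SA by 1.90 ± 0.35 (adjusted p = 0.00018), each at 4 of 4 times and under every alternative. MeJA was above BABA by 1.30 ± 0.35 and above INA by 0.93 ± 0.35, ET above BTH by 1.25 ± 0.35 and above SA by 1.06 ± 0.35, and INA above SA by 0.97 ± 0.35, with adjusted p up to 0.0382. BTH was below INA by 1.16 ± 0.35 (adjusted p = 0.0111), and BTH and SA differed by -0.19 ± 0.35, with a 95% half-width of 0.72. All calls but MeJA minus BTH and MeJA minus SA were lost under at least 1 alternative. With the replicate block INA minus SA was 0.70 (adjusted p = 0.099). No neighbours in the order BTH, SA, BABA, INA, ET, MeJA differed past the threshold.

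PSAE-1 passed in 5 of 15 pairs, each of them with BTH. BTH was above SA by 1.27 ± 0.25 (adjusted p = 0.00034), with 1.08, 1.45, 1.5 and 1.04 over the 4 times. It was above INA by 1.11 ± 0.25, above ET by 0.97 ± 0.25, above BABA by 0.89 ± 0.25 and above MeJA by 0.67 ± 0.25 (adjusted p = 0.0365 for the last), each at 4 of 4 times. Without the 10 h conditions the pairs with BABA (0.70) and MeJA (0.55) no longer passed. In the deposited values 0 of the 15 pairs passed in the limma fit, and 0 had an unadjusted p under 0.05.

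Differences between 2 of the genes on the same array do not change when the whole array is shifted, as by median or TUA5 centring. Quantile normalization is not such a shift, and the differences were not tested after it. PSAE-1 minus FUG1 averaged 2.77 ± 1.48 under BTH (SD over 4 times) and 1.31 ± 1.30 under SA, 1.09 ± 1.27 under BABA, 0.55 ± 0.78 under ET, 0.50 ± 1.02 under INA and 0.01 ± 1.66 under MeJA. AT1G64500 minus FUG1 ran from -0.51 ± 2.20 under BABA to 3.74 ± 1.27 under BTH, and AT1G64500 minus PSAE-1 from -1.59 ± 1.58 under BABA to 1.66 ± 1.24 under MeJA. Each difference depended on the agent in a permutation test with 100000 resamples of agent labels within times, one-sided for a larger sum of squared agent means. The p-values adjusted over the 3 tests were 0.00019 for PSAE-1 minus FUG1, 7.5e-05 for AT1G64500 minus FUG1 and 6e-05 for AT1G64500 minus PSAE-1. Other pairs of genes were not put to this test, so the share that would pass is unknown. Of single genes, 86.1% differed among the agents in the limma fit.

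By time, PSAE-1 minus FUG1 averaged 2.27 ± 1.48 at 2 h (SD over 6 agents), 1.27 ± 0.69 at 5 h, -0.52 ± 1.27 at 10 h and 1.13 ± 0.76 at 24 h. PSAE-1 lay above FUG1 in all 6 agents at 2, 5 and 24 h. At 10 h it lay below FUG1 under 5 agents, and under BTH it stood 1.47 above.

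**Figure D4:**
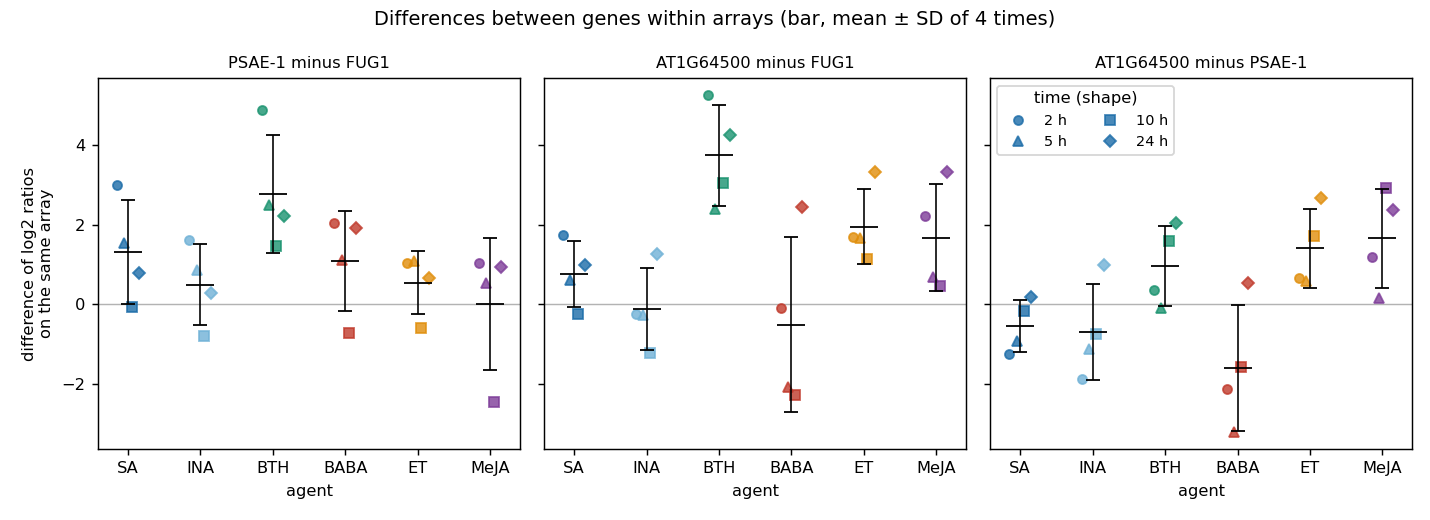
Difference of the log2 ratios of 2 genes on the same array (vertical axis) by agent (horizontal axis), with the 4 times as shaped points and the mean ± SD of the 4 times as a bar. Under BTH, PSAE-1 and AT1G64500 stand above FUG1 at all 4 times, by means of 2.77 and 3.74.

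The 3 genes did not follow one common course. Over the 24 conditions, which share the untreated reference, the correlation was 0.54 between PSAE-1 and AT1G64500, 0.22 between FUG1 and AT1G64500 and -0.19 between FUG1 and PSAE-1. These are descriptions, and after centring on TUA5 they were 0.69, 0.47 and 0.08.

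Among the other tested genes, those with the course most like FUG1 over the 24 conditions were AT1G31540 (r = 0.81), the beta-glucosidase gene BGLU33 (0.77), AT3G44670 (0.76), the glucosinolate transporter gene GTR1 (0.72) and BGLU22 (0.70). The lowest was AT5G51830 at -0.71. For PSAE-1 they were AT1G44970 (0.90), AT5G48540 (0.72), AT2G34590 (0.699), AT5G44020 (0.68) and TAPX (0.68), and the lowest was AT5G16880 at -0.74. AT1G44970 and AT5G48540 are also 2 of the 5 genes with 10 h lowest under all agents. For AT1G64500 they were the NRT1/PTR-family transporter genes AT2G26690 (NPF6.2, 0.93) and AT3G21670 (NPF6.4, 0.93, over 23 conditions), then AT1G29660 (0.92), AT4G38710 (0.84) and AT3G49220 (0.82). The lowest was AT3G62550 at -0.88, over 22 conditions. The median r over the other 179 genes was between -0.03 and 0.01 for each of the 3.

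A search of the symbols and synonyms of all named genes for photosynthesis and plastid terms found 1 further gene, TAPX, the thylakoidal ascorbate peroxidase, which removes hydrogen peroxide at the photosynthetic membrane. The same search for glutaredoxin, thioredoxin, peroxiredoxin and glutathione, and for ribosomal proteins and translation factors, found 0 genes, since FUG1 and AT1G64500 carry no such term in these fields. TAPX was called lower under 5 of 6 agents, from -0.97 ± 0.19 under ET to -0.63 ± 0.19 under BTH, with -0.44 ± 0.19 under MeJA not past the threshold. Under these 5 agents, 21.7% (ET) to 35.6% (SA) of all tested genes were called lower. TAPX also differed among times (F = 10.4, adjusted p = 0.00059), as did 57.8% of all tested genes. It did not pass among agents (F = 1.11, adjusted p = 0.397). The calls of TAPX were not followed under the alternative settings. The close homolog of PSAE-1, PSAE-2, was not among the named spots, and whether either transcript binds the other's cDNA was not tested.

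The choice of zero bore on the signs of the means and on part of the order of the times. PSAE-1 was lowest at 10 h and AT1G64500 highest at 24 h with each choice, while other times changed places. Over the 6 agents, PSAE-1 was lower at 24 h (-0.52) than at 2 h (-0.03) with median centring and higher (0.73 against 0.37) after centring on TUA5. Neither difference passed the threshold (adjusted p = 0.073 and 0.265, limma). AT1G64500 had its lowest time mean at 10 h with median centring (-1.72) and at 5 h after quantile normalization (-0.92). Its means at 10 h and 5 h did not differ past the threshold in either setting (adjusted p = 0.579 and 0.676, limma). FUG1 was below 0 in 23 of 24 conditions with median centring, in the deposited values and after quantile normalization, and in 21 after centring on TUA5. Of the 137 complete genes, 12 were below 0 in at least 23 conditions with median centring, or 8.76%. PSAE-1 was below 0 in 21 conditions with median centring, 15 in the deposited values, 12 after centring on TUA5 and 13 after quantile normalization, and at 10 h it was below 0 under all 6 agents with each. Under BTH its mean was 0.24 in the deposited values, 0.42 after quantile normalization and 1.29 after centring on TUA5, where it passed as higher (adjusted p = 1.3e-05). AT1G64500 was below 0 in 15, 11, 10 and 12 conditions in the order median, deposited, TUA5 and quantile.

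**Figure D5:**
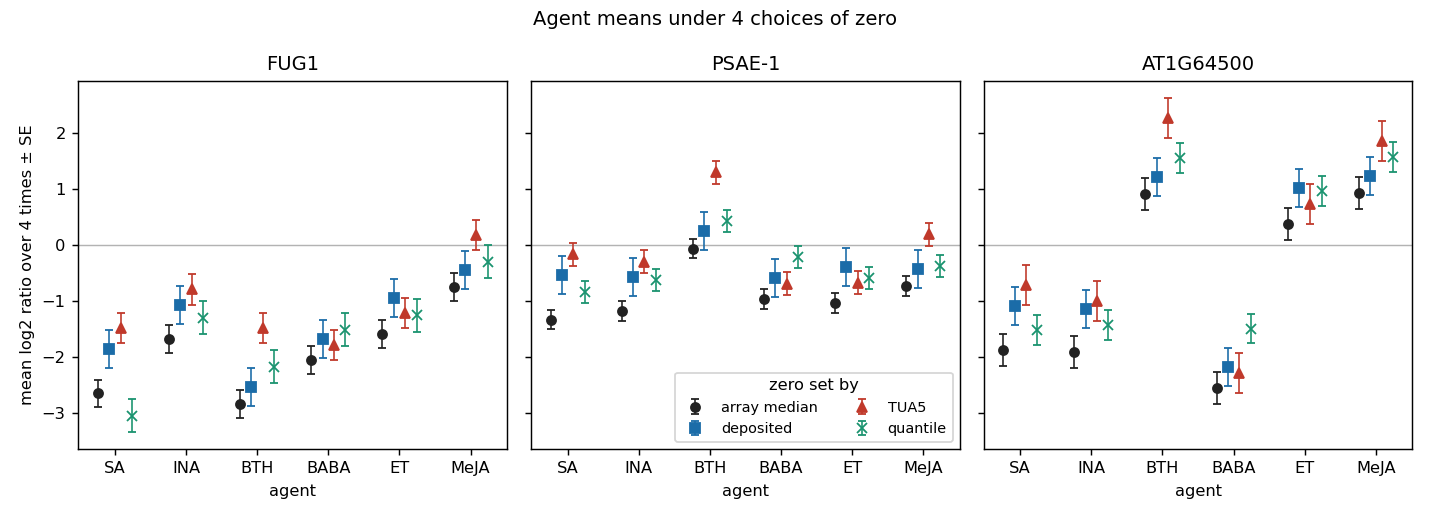
Mean log2 ratio over 4 times ± SE (vertical axis) by agent (horizontal axis), with each array's zero set by its median, left as deposited, set by TUA5 or after quantile normalization. FUG1 stays below 0 under SA, INA, BTH, BABA and ET with each choice, while PSAE-1 under BTH runs from -0.07 to 1.29.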

How the data were processed

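Per the labels and the series' design text, a ScanArray scanner and its software gave each spot's median pixel intensity, with treated RNA in Cy5 and untreated RNA in Cy3. The deposited values are log ratios, taken as log2. The base, background correction, spot filter and normalization of these values were not given in the sources used here. Nothing was imputed. Spot names came from GEO's platform annotation, updated by gene number from RefSeq (TAIR10.1), with 415 of 416 genes matched.

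Array medians were set to 0, the 2 spots of a gene and the arrays of 1 RNA were averaged, and genes with values in at least 20 of 24 conditions and 3 of 4 times per agent were kept (180 genes, 137 complete). An additive model of agent and time was fitted by least squares, with variances moderated in limma 3.58.1 (R 4.3.3). Late and early phases used a mean per agent and phase. P-values are two-sided. The fit was tested on simulated data. The differences between first and second arrays correlated at 0.58, 0.53 and 0.44 over tested genes between the 3 repeated conditions, so values with the replicate number as a block are given where they change a call. In the block fit, repeat arrays of the same RNA count as separate samples, and the block is estimated from INA and BTH conditions alone. Named genes were the 3 members, for each the 5 genes of highest r and the 1 of lowest r, genes of the keyword lists, and TUA5. Members and lists were chosen with earlier results of these data known. Intensities were not analysed here, so signal over background is unknown. The alternatives were other centrings, filters, spots, repeat arrays, variance models and times left out.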

Additional observations from a re-analysis of the deposited data

Results flagged for a closer look

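In 18 sets of 4 times (3 genes under 6 agents), 2 held a value far from the other 3, and chance flags about 1 set in 20. PSAE-1 at 10 h of MeJA stood at -2.21, where the other 3 times lay between -0.27 and -0.22. FUG1 at 24 h of BABA stood at -2.40, where the others lay between -1.96 and -1.91. All 3 genes had effects that differed between agents, with F of 30.8 for AT1G64500, 9.65 for FUG1 and 6.60 for PSAE-1.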

How the results depend on the processing

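Of 564 values of the limma fits under 16 alternatives, 508 kept their direction and side of the threshold. Some alternatives cannot move a mean, so this count overstates how far the means were tried. The other filters, the other variance model and the fit without time terms left each agent mean of the 3 genes unchanged. So did leaving out repeat arrays for SA, BABA, ET and MeJA. In the deposited values the means of PSAE-1 were -0.54 (SA), -0.57 (INA), -0.59 (BABA), -0.40 (ET) and -0.44 (MeJA), no longer past the threshold, with 0.24 under BTH, F over agents 0.87 and late minus early -1.01. There FUG1 under MeJA was -0.45 and AT1G64500 under ET rose to 1.01, past it, and 4 pairs passed for FUG1 and 0 for PSAE-1. Centred on TUA5, values were -0.17, -0.30, 1.29 and 0.19 for PSAE-1 under SA, INA, BTH and MeJA, -0.71 for AT1G64500 under SA, 0.17 for FUG1 under MeJA, 7.82 for F of FUG1 over times and -0.66 for late minus early of PSAE-1. After quantile normalization they were 0.42, -0.22 and -0.37 for PSAE-1 under BTH, BABA and MeJA, 0.96 for AT1G64500 under ET and -0.30 for FUG1 under MeJA. F of FUG1 over times was then 5.90, and late minus early 0.90 for FUG1 and -0.87 for PSAE-1. Without time terms PSAE-1 kept its means of -0.96 (BABA), -1.04 (ET) and -0.73 (MeJA) and AT1G64500 0.90 (BTH) and 0.93 (MeJA), not past the threshold, since the spread then holds the time courses. F of PSAE-1 over agents was 0.89, with 0 pairs for PSAE-1 and 5 for FUG1. With the replicate block FUG1 under MeJA was -0.38, and the AT1G64500 mean at 2 h was -0.49 and lost its call. No other call of an agent or time mean or of an F changed for the 3 genes with the block.

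Leaving out a time or a repeat array gave -0.41 to 0.31 (PSAE-1, BTH, 0.31 without 10 h), -1.32 to -0.39 (PSAE-1, BABA), -1.34 to -0.56 (PSAE-1, ET), -0.91 to -0.24 (PSAE-1, MeJA) and -1.08 to -0.57 (FUG1, MeJA). For AT1G64500 it gave 0.55 to 1.22 (BTH), -0.35 to 0.74 (ET, -0.35 without 24 h) and 0.53 to 1.25 (MeJA). F of PSAE-1 over times ran from 4.57 to 71.5, and late minus early from -1.96 to -0.16 for PSAE-1 and from -0.73 (without 24 h) to 1.94 for AT1G64500. Called pairs ran from 4 to 11 for FUG1 and 3 to 5 for PSAE-1. The causes were not tested. The permutation p-values, unadjusted, stayed between 2e-05 and 0.00026 without the first or second arrays, but those of AT1G64500 could not be run without the first arrays, since the second INA 10 h array lacks the gene.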
